A study of Mus musculus with 6 samples.

Results

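The replication-dependent histone genes of the mouse were described in bEND.3 cells after knockdown of the long non-coding RNA Gm39822. The members were chosen by symbol, as genes whose name began with Hist1h, Hist2h, Hist3h or Hist4h or followed the newer histone names, and 68 of the 49315 listed genes met this rule. They comprised 6 H1, 20 H2A, 17 H2B, 12 H3 and 13 H4 genes, of which 54 were named for the Hist1 cluster, 10 for Hist2, 3 for Hist3 and 1 for Hist4. bEND.3 cells are brain microvessel endothelium of the mouse, grown as an established line. One group of 4 samples received an antisense LNA GapmeR against Gm39822 at 100 nM, and the other group of 2 samples received a negative control GapmeR at 100 nM. The series' description names 4 samples for each group, and every control mean and p-value here rests on 2 controls. Both oligonucleotides were delivered by lipofection into cells grown with fetal bovine serum, no other allele or agent was named, and no untransfected samples were analysed here. A GapmeR is an antisense oligonucleotide with a DNA core that lets RNase H cut the paired RNA. GapmeR samples 1 to 4 held 33074972, 37117934, 30264086 and 31067184 counts in all, and the negative controls held 29261988 and 34266811. Nothing in the labels says that samples of a group came from separate cultures, so p-values measure the spread between these samples, which may be technical.

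Each cell cycle, newly made DNA is packed with newly made histones: H2A, H2B, H3 and H4 form the nucleosome core, and H1 binds the linker DNA beside it. The genes of the replication-dependent set are transcribed in S phase under NPAT, and their mRNAs characteristically end after a conserved stem-loop in place of a poly(A) tail. The stem-loop binding protein SLBP holds that loop while the U7 ribonucleoprotein directs cleavage, and the mRNAs are degraded when DNA synthesis ends. Some of these genes are also known to give longer, polyadenylated transcripts. The series' description names ribosomal RNA depletion, which keeps RNA without a tail, while the samples' own protocol names an ultra low input RNA kit.

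The stem-loop was looked for in the GENCODE vM39 transcripts of the 68 genes on the transcript's strand, with the outer bases of the stem, those that close the loop and some bases of the loop held fixed and any base allowed elsewhere, and 45 genes held it. Of the longest protein-coding transcripts of all 21642 genes, 1.71% held these letters. Several of the other histone genes had short annotated transcripts, such as 312 bases for Hist1h4k and 381 for Hist1h2bl. A transcript annotated only to the end of its coding sequence holds no stem-loop to find, so a missing match does not show that the gene lacks one. The loops of 4 abundant genes, of an H4 gene with a large fold change and of an H2A gene that was not called are shown with 5 bases on each side, the arms of the stem in capitals and the loop between them in lower case.
Hist1h1c: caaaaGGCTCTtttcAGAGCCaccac
Hist1h2bc: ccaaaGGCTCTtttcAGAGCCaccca
Hist3h2a: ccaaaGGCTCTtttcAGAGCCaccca
Hist1h4i: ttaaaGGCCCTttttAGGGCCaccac
Hist1h4j: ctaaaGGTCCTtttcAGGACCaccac
Hist1h2ad: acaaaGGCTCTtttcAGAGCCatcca

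On GRCm39 these windows lie at chr13:23923490-23923515 on the plus strand, chr13:23868625-23868650 plus, chr11:58845993-58846018 plus, chr13:22225131-22225156 minus, chr13:21919602-21919627 plus and chr13:23759064-23759089 plus, in the order shown. The 16-base run of stem and loop shown for Hist1h1c was shared by 25 of the 45 genes. The runs shown for Hist1h4i and for Hist1h4j were each found in 2 genes.

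Gm39822, the target, was checked first. It had 2, 1, 4 and 2 counts in the GapmeR samples against 61 and 56 in the controls, with a log2 fold change of -4.82 (SE 0.41, adjusted p = 8.82e-08, edgeR quasi-likelihood test). All 12 endothelial marker genes were detected, and they summed to 10126 ± 639.8 CPM (SD, n = 4) after GapmeR treatment and to 11218 ± 318.3 CPM (SD, n = 2) in the negative controls. Of these markers 7 fell and 2 rose at an adjusted p under 0.05, 58.3% and 16.7% of the list, beside 20.0% and 25.4% of all genes tested, and Egfl7, an endothelial secreted protein, had the most counts. CPM is the count per 1000000 counts that a library holds in the tested genes, with this total scaled by edgeR's TMM factor.

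Counts of histone transcripts were low in every library and lower in the GapmeR samples. The 68 genes together had 1535, 1920, 1325 and 1360 counts in GapmeR samples 1 to 4, against 3407 and 4457 counts in controls 1 and 2. These made up 0.00438% to 0.00517% of a GapmeR library and 0.0116% and 0.0130% of the control libraries. The summed level was 45.3, 49.3, 42.7 and 42.1 CPM after GapmeR treatment against 124.4 and 139.7 CPM after the control oligonucleotide, so the groups did not overlap. Mean sums of 44.9 ± 3.28 CPM (SD, n = 4) for GapmeR and 132.02 ± 10.8 CPM (SD, n = 2) for the controls gave a 2.94-fold lower level, or a log2 ratio of -1.56. The sum itself was not tested. In bulk RNA, fewer cells in S phase and less histone RNA per cell cannot be told apart. How fully the libraries captured histone mRNA without a tail was not tested, so the sums describe counted reads and not the whole pool.

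**Figure D1:**
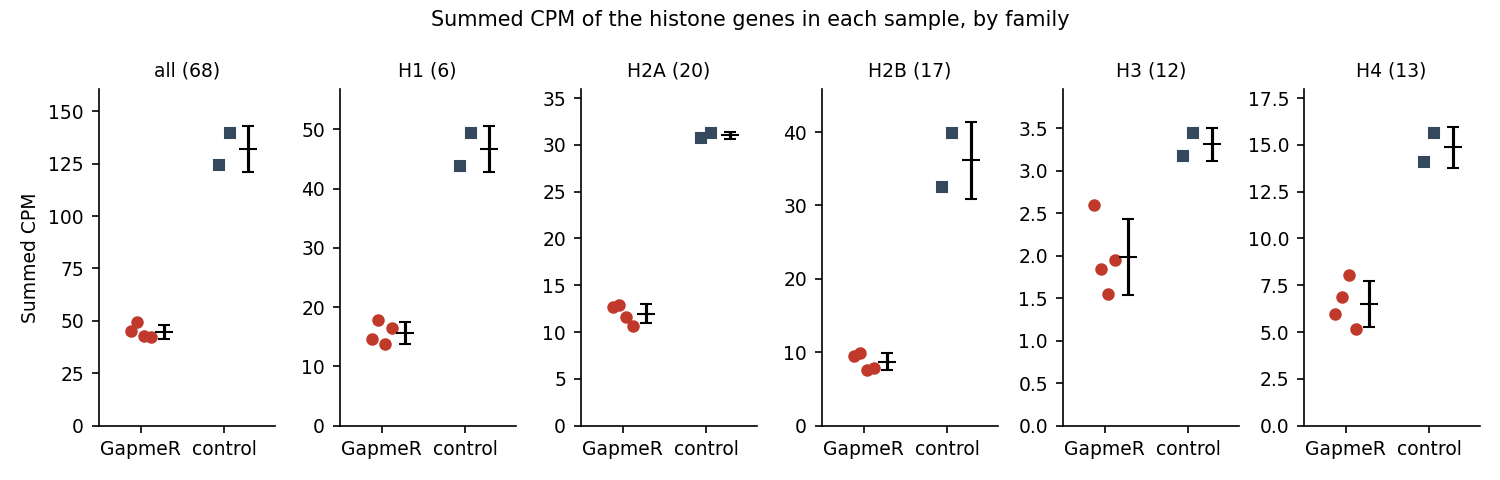
Summed CPM (linear axes from 0) of all 68 histone genes and of each family, with the number of genes in brackets; circles are the 4 GapmeR samples, squares the 2 negative controls, and the bar beside each group is its mean ± SD. In every panel the GapmeR samples lie below both controls, and the sum of all genes is 42.1 to 49.3 CPM against 124.4 and 139.7 CPM.

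All 5 families had lower sums after GapmeR treatment, with no overlap between groups. The H2B sum showed the largest ratio, 8.74 ± 1.12 CPM (SD, n = 4) against 36.2 ± 5.26 CPM (SD, n = 2), or 4.14-fold. The H1 sum was 15.7 ± 1.81 against 46.6 ± 3.91 CPM, and the H2A sum was 11.9 ± 1.02 against 31.02 ± 0.352 CPM. The H4 sum was 6.50 ± 1.23 against 14.9 ± 1.09 CPM, and the H3 sum was 1.99 ± 0.442 against 3.31 ± 0.191 CPM, the smallest ratio of the 5 at 1.67-fold. By cluster, the Hist3 sum was 3.60-fold lower, the Hist1 sum 2.99-fold and the Hist2 sum 1.53-fold. Hist4h4, the one Hist4 gene, had 3, 5, 5 and 3 counts against 4 and 1, and these overlapped.

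A few genes carried most of the difference. Hist1h1c, Hist1h2bc and Hist3h2a had 46.9% to 53.9% of the histone counts of each GapmeR sample and 65.6% and 70.0% of those of the controls. Without them the sum was 22.5 ± 2.22 CPM (SD, n = 4) against 42.3 ± 0.630 CPM (SD, n = 2), and the log2 ratio was -0.91 in place of -1.56. The genes left out were picked after their values were seen.

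Gene by gene, 47 of the 68 members reached 5 counts in 2 or more samples and were tested with all other genes. Of these 13 were called lower at an adjusted p under 0.05, 27.7% of those tested, beside 20.0% of all 18234 genes tested. None was called higher by edgeR's quasi-likelihood test, beside 25.4% of all genes; at an unadjusted p under 0.05, 1 member was higher and 14 were lower. DESeq2's Wald test and limma-voom each called 0 members higher, with 12 and 13 lower. All 13 fell by at least 1.5-fold, and in all 13 every GapmeR sample was below both controls. Such a separation held for 18 of the tested members, beside 27.3% of all genes, and the reverse held for 1, beside 31.9%. The median log2 fold change was -0.39 over the members tested and 0.03 over all genes tested. The members' counts were far lower than those of the other genes, with a median of 11.3 against 291.9 per sample, and their median SE was 0.47 against 0.14. One member, Hist1h3d, passed the count minimum through the controls alone, and 5 passed it through the GapmeR samples alone. Such genes had to differ to be tested, and without these 6, 12 of 41 members were lower and 0 higher, a split made after the values were seen.

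**Figure D2:**
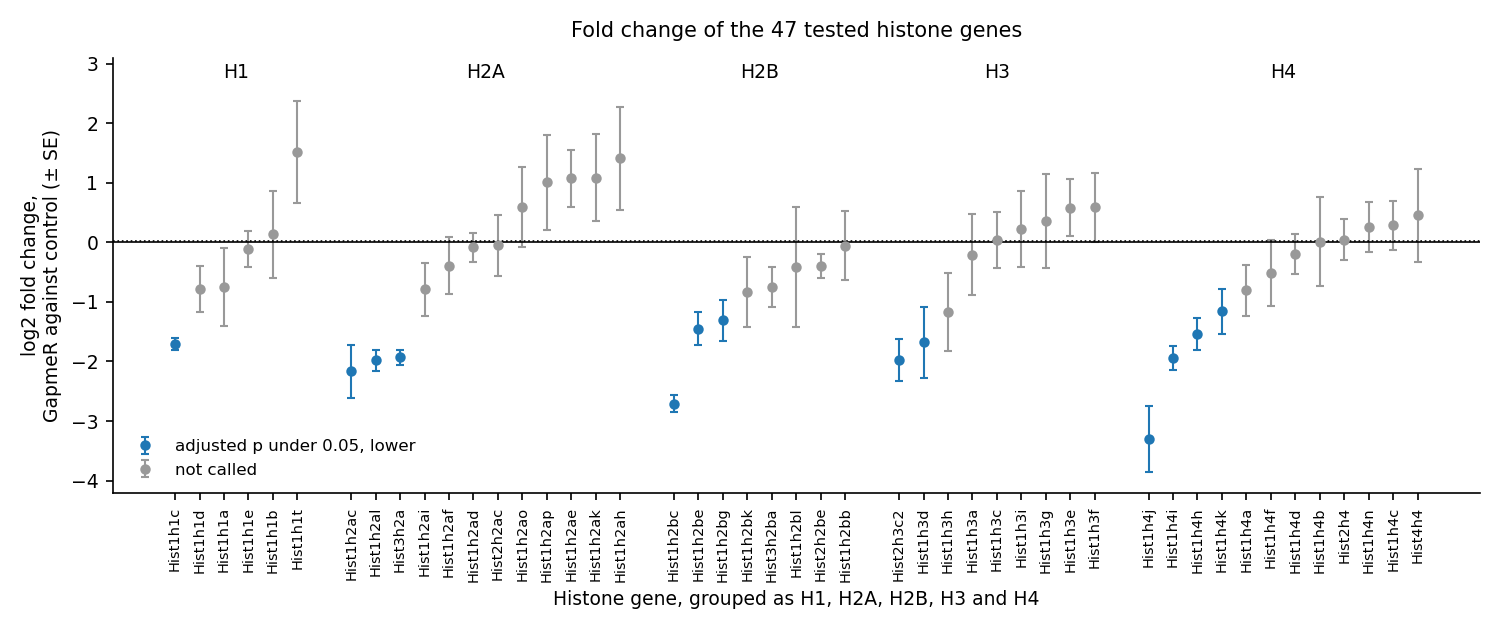
Log2 fold change of GapmeR against negative control samples (points, bars ± SE) for the 47 tested histone genes, ordered within each family; blue genes were called lower, grey ones were not called, and the dotted line is the median of all genes tested, 0.03. The 13 blue genes lie between -3.30 and -1.16, and each family has at least 1 of them.

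Among the linker histones, Hist1h1c, which encodes H1.2, fell. It had 419, 590, 375 and 477 counts after GapmeR treatment against 1137 and 1499 in the controls, which is 13.6 ± 1.59 CPM (SD, n = 4) against 44.2 ± 3.86 CPM (SD, n = 2). The GapmeR samples lay close together and far under the controls, with a log2 fold change of -1.70 (SE 0.10, adjusted p = 1.09e-09). On GRCm38 the RefSeq gene lies at chr13:23738807-23739531, and it took 86.7% of the H1 sum in the GapmeR samples and 94.8% in the controls. The other 5 H1 genes were not called, so 16.7% of the H1 genes tested were lower, beside 20.0% of all genes. Hist1h1e, the gene of H1.4 and the highest of those 5 in mean CPM, had 49, 66, 27 and 31 counts against 30 and 51, with overlapping groups and a log2 fold change of -0.11 (SE 0.30, adjusted p = 0.793). Hist1h1d, which encodes H1.3, had 10, 17, 10 and 14 counts against 23 and 15. Hist1h1a had 5, 4, 3 and 3 counts against 8 and 3. Hist1h1b, which encodes H1.5, had 3, 14, 3 and 3 counts against 3 and 6, and 1 GapmeR sample stood above the other 5 samples. Hist1h1t, the testis linker histone, had 8, 5, 12 and 2 counts against 1 and 3, with a log2 fold change of 1.52 (SE 0.85, adjusted p = 0.161).

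Of the 20 H2A genes, 12 were tested and 3 fell, 25.0% beside 20.0% of all genes. Hist3h2a, the single H2A gene of the small cluster on chromosome 11 (GRCm38 chr11:58954685-58955192), had 166, 168, 129 and 140 counts in the GapmeR samples against 406 and 601. The 4.43 ± 0.324 CPM (SD, n = 4) of the GapmeR group stood against 16.8 ± 2.84 CPM (SD, n = 2) in the controls. It fell by 1.93 on the log2 scale (SE 0.12, adjusted p = 3.63e-09). GENCODE places most of its long annotated transcript within Trim17 on the same strand, and 69.3% of its 150-base windows occur in transcripts of Trim17. Trim17 itself had 9, 15, 17 and 5 counts against 1 and 3. Where reads of the shared windows were counted was not tested.

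Hist1h2al had 77, 68, 80 and 64 counts against 262 and 235, with a log2 fold change of -1.98 (SE 0.17, adjusted p = 1.49e-07) and no overlap. It lies on GRCm38 at chr13:51200084-51203066, apart from the other Hist1 genes of chromosome 13, of which the 52 with RefSeq coordinates lie between 21715711 and 23934913. GENCODE vM39 lists it as a processed pseudogene, H2af-ps2. Hist1h2ac had 4, 9, 5 and 5 counts against 28 and 17, a small number that still separated the groups, with a log2 fold change of -2.17 (SE 0.44, adjusted p = 7.82e-04).

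Hist1h2ad, with the most counts among the H2A genes that were not called, had 101, 142, 78 and 57 counts against 87 and 85. The groups overlapped, with a log2 fold change of -0.09 (SE 0.24, adjusted p = 0.798). Hist1h2ae had 17, 25, 9 and 22 counts against 5 and 10, and a log2 fold change of 1.07 (SE 0.47, adjusted p = 0.0763). Without GapmeR sample 3 it stood at 1.28 and was called higher (adjusted p = 0.0226). Hist1h2ak had 6, 15, 16 and 3 counts against 6 and 2 and a log2 fold change of 1.09 (SE 0.73). Hist1h2ah, with 8, 3, 5 and 3 counts against 1 and 2, was the tested member whose GapmeR samples all lay above both controls, and it was not called (adjusted p = 0.200).

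All 8 H2B genes tested had a negative log2 fold change, and 3 of them were called lower, 37.5% beside 20.0% of all genes. Hist1h2bc, which encodes a common H2B protein, had 164, 202, 118 and 116 counts after GapmeR treatment and 692 and 1020 with the control oligonucleotide. At 4.36 ± 0.778 CPM (SD, n = 4) against 28.6 ± 4.74 CPM (SD, n = 2) it fell by 2.71 on the log2 scale (SE 0.14, adjusted p = 1.01e-09). It made up 79.1% of the controls' H2B sum and 49.8% of that of the GapmeR samples. Hist1h2be had 20, 24, 15 and 25 counts against 41 and 60, with a log2 fold change of -1.45 (SE 0.28, adjusted p = 4.62e-04). Hist1h2bg had 22, 25, 11 and 16 counts against 25 and 56, and its log2 fold change was -1.31 (SE 0.34, adjusted p = 0.00489). The lower control of Hist1h2bg lay close to the highest GapmeR sample, at 0.913 against 0.649 CPM, and without control 2 the gene stood at -0.73 (adjusted p = 0.240) and was not called.

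Hist2h2be, an H2B gene whose GENCODE transcript lacks the stem-loop letters and ends near a poly(A) signal, was not called. It had 83, 86, 56 and 64 counts against 85 and 79, a log2 fold change of -0.39 (SE 0.20) and an adjusted p of 0.125. Hist1h2bb had 6, 7, 4 and 5 counts against 4 and 6, and Hist1h2bl had 0, 9, 1 and 2 against 1 and 6, and in both the groups overlapped.

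Many H2A and H2B genes stand head to head, with close starts on opposite strands. Counting starts at most 500 bases apart by RefSeq on GRCm38.p6, 12 such pairs were present, with 163 to 280 bases between the starts. Both genes were tested in 5 of the pairs, and both fell in 1 pair, Hist1h2ac and Hist1h2bc. GENCODE vM39 has transcripts of these genes overlap on opposite strands, and with no stated strand setting the 68 counts of Hist1h2ac over all samples cannot be told apart from reads of Hist1h2bc, which had 2312. The 239 bases between their starts, at chr13:23683960-23684198 of GRCm38.p6, are printed from RefSeq on the minus strand, in the direction of Hist1h2ac, because this was the pair with both genes called. Capitals mark the CCAAT box, the TATA box TATAAA or the octamer as a match to the letters on either strand, and these matches do not overlap here. The octamer letters searched were ATTTGCAT.
Hist1h2bc to Hist1h2ac: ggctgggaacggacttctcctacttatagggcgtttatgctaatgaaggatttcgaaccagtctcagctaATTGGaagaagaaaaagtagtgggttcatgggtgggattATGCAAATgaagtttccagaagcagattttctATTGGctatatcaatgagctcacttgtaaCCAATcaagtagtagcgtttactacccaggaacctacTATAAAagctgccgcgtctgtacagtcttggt

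The stretch held 3 matches to CCAAT, 1 to the TATA box and 1 to the octamer, which is known from H2B promoters and is bound by POU2F1. RefSeq promoters of 250 bases before to 50 after the start were found for 59 of the 68 genes, as 60 windows. The CCAAT letters were present in 85.0% of these and in 37.4% of all 32851 promoters, those of the TATA box in 58.3% against 13.6%, and those of the octamer in 21.7% against 1.74%. The octamer letters were in 7 of 17 H2A and 6 of 15 H2B windows and in none of the 6 H1, 10 H3 and 12 H4 windows. Windows of a head-to-head pair cover many of the same bases. The same match can thus be counted for both genes, as can occur for Hist1h2ae and Hist1h2bg. Of the 12 H4 windows 3 held CCAAT, while every H1, H2A, H2B and H3 window did. In the other pairs with both genes tested, Hist1h2bg fell beside Hist1h2ae at 1.07, while Hist1h2ah and Hist1h2bk stood at 1.41 and -0.83, Hist1h2ai and Hist1h2bl at -0.79 and -0.41, and Hist2h2ac and Hist2h2be at -0.05 and -0.39 on the log2 scale, with no call for these last 6. These differences within pairs were not tested.

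H3 genes had the fewest counts. Of 12 genes, 9 were tested and 2 fell, 22.2% beside 20.0% of all genes. Hist2h3c2, which encodes H3.2, had 21, 11, 7 and 14 counts against 39 and 53, with a log2 fold change of -1.98 (SE 0.35, adjusted p = 2.19e-04). Of its 150-base windows, 59.4% also occur in other genes, H3c13 and H3c14 among them, so reads could be assigned to a sister gene or left out. Hist2h3b and Hist2h3c1, the files' names for those 2 genes, were listed at 0 counts in all 6 samples. Hist1h3d had 3, 2, 3 and 3 counts against 6 and 10, and its log2 fold change was -1.68 (SE 0.60, adjusted p = 0.0310), but it was tested only because the controls, where it was high, reached the count minimum. DESeq2 did not call Hist1h3d (adjusted p = 0.146), nor did edgeR without GapmeR sample 2, where it stood at -1.49 (adjusted p = 0.0595). Hist1h3h had 4, 3, 1 and 5 counts against 7 and 6 and was not called (adjusted p = 0.156). Hist1h3e and Hist1h3f stood at 0.58 and 0.59 on the log2 scale with SE of 0.48 and 0.57, and their groups overlapped.

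H4 genes encode the same core protein from many copies, and 4 of the 12 tested fell, 33.3% beside 20.0% of all genes. Hist1h4i had 56, 71, 58 and 35 counts against 149 and 223. It fell by 1.95 on the log2 scale (SE 0.20, adjusted p = 1.08e-06), and the GRCm38 gene lies at chr13:22040960-22041362. Hist1h4h had 25, 39, 45 and 23 counts against 85 and 83, with a log2 fold change of -1.55 (SE 0.27, adjusted p = 1.97e-04). Hist1h4j had 3, 0, 5 and 5 counts against 21 and 38, and its log2 fold change of -3.30 (SE 0.55, adjusted p = 1.58e-04) was the lowest of the 47 members. Hist1h4k had 18, 25, 23 and 8 counts against 44 and 27, and a log2 fold change of -1.16 (SE 0.38, adjusted p = 0.0213), and its controls, at 1.61 and 0.846 CPM, lay further apart than the group means of 1.23 and 0.541 CPM. Without control 1 Hist1h4k stood at -0.62 and was not called (adjusted p = 0.370). Of the 8 H4 genes that were not called, Hist1h4c stood at 0.28 (SE 0.41) and Hist1h4n at 0.26 (SE 0.42) on the log2 scale, and both overlapped between groups.

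**Figure D3:**
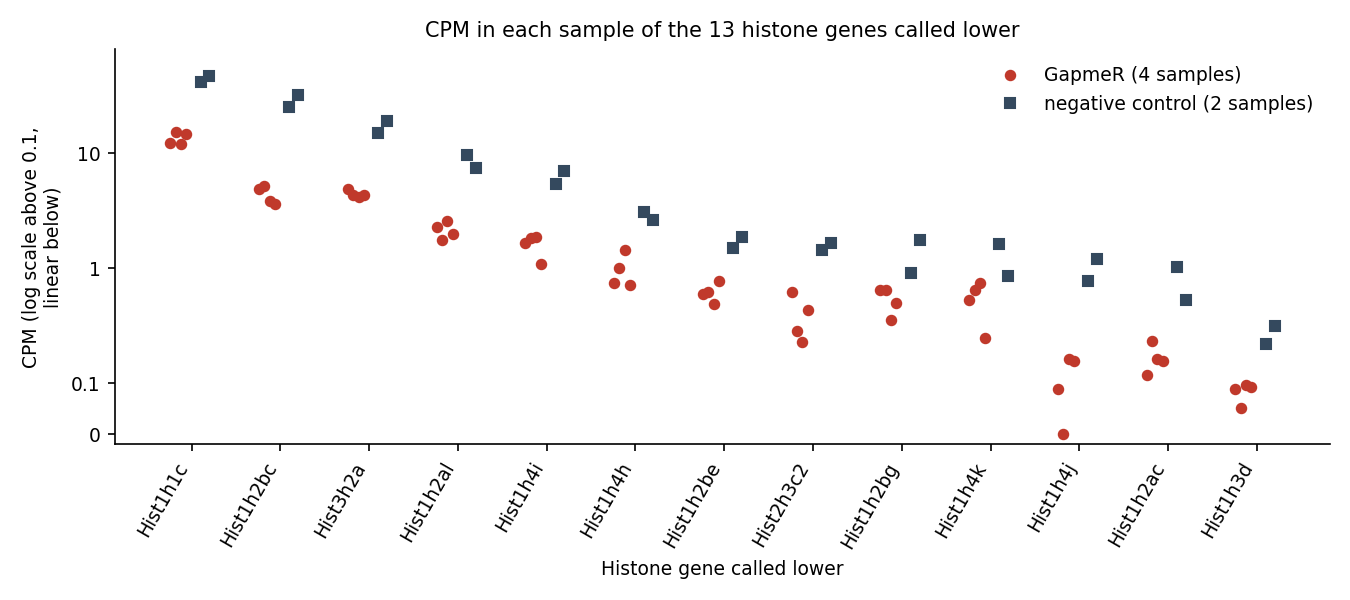
CPM of the 13 histone genes called lower in each sample (circles, 4 GapmeR samples; squares, 2 negative controls), ordered by the control mean; the axis is logarithmic above 0.1 CPM and linear below. In each gene all GapmeR samples lie below both controls, from Hist1h1c at 13.6 against 44.2 CPM on average to Hist1h3d at 0.0824 against 0.266 CPM.

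The 55 genes outside the 13 summed to 15.8, 17.6, 14.5 and 13.3 CPM against 17.2 and 16.8 CPM, which overlap, with a log2 ratio of -0.15. Since the 13 were taken out for having fallen, this value is a description and was largely set by that choice. Among the 34 tested but not called, 17 log2 fold changes were positive and 17 negative, from -1.17 to 1.52. Their median SE was 0.56 and that of the 13 was 0.28, with medians of 50 and 185 counts over all 6 samples, so a smaller change was detectable in the 13. The 21 genes not tested had at most 9 counts in any sample, and 6 of them had 0 counts in all. The testis genes Hist1h2aa and Hist1h2ba were among the 21, with 3 counts in 1 GapmeR sample and with 0 counts in every sample. A count of 0 allows a level of up to 0.0771 to 0.0967 CPM in a GapmeR sample and 0.0940 or 0.110 CPM in a control, for counting error alone.

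Levels of different genes were set per kilobase of merged GENCODE exons, which need not be the lengths used when the reads were counted. Of the 9 members with a mean of at least 1 CPM, Hist1h1c had 28.4 CPM per kb in the controls and Hist1h2al 25.0. Hist1h2bc, Hist1h4i and Hist3h2a had 9.27, 8.55 and 7.84 CPM per kb, and Hist1h4h and Hist1h2ad had 6.07 and 5.10. The order depends on the lengths taken. By RefSeq gene spans on GRCm38, which include introns and were tried after the values were seen, Hist1h1c was again highest in the controls at 61.02 CPM per kb, while Hist3h2a had 33.1 and Hist1h2al 2.84.

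What the annotated 3′ ends of the genes look like was set beside these levels after the values were seen, so it is a description with no test. GENCODE vM39 gave 20 of the 68 genes a transcript with AATAAA or ATTAAA, the poly(A) signal letters, in its last 50 bases, where 70.8% of the longest protein-coding transcripts of all genes have them. Of these 20, 16 were tested and 8 were lower, 50% beside 20.0% of all genes, and their levels summed to 30.4 ± 1.80 CPM (SD, n = 4) against 107.1 ± 12.6 CPM (SD, n = 2). The other 48 had 31 tested and 5 lower, 16.1%, with 14.5 ± 1.83 against 24.9 ± 1.76 CPM. The median of the members' mean levels was 0.453 CPM with the signal and 0.149 CPM without it, so the 2 sets differed in counts as well. Some of the 48, such as Hist1h4k with 312 bases, had short annotated transcripts that may end with the coding sequence. A missing signal in such a transcript says nothing of the gene's 3′ end. Of the 45 genes with the stem-loop letters, 24 had a transcript that ran over 100 bases past them, and 10 of the 23 tested among these were lower, 43.5%. The other 21 had 12 tested and 1 lower, 8.33%, and their median level was 0.121 CPM against 0.468 CPM for the 24. The part of these levels in the number of calls was not tested. The 1 lower was Hist1h4h, whose transcript ran 46 bases past the loop and carried a poly(A) signal. Hist1h1c, Hist1h2bc and Hist3h2a ran 840, 373 and 1643 bases past the loop. Whether the counted reads came from tailed or untailed transcripts was not tested.

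**Figure D4:**
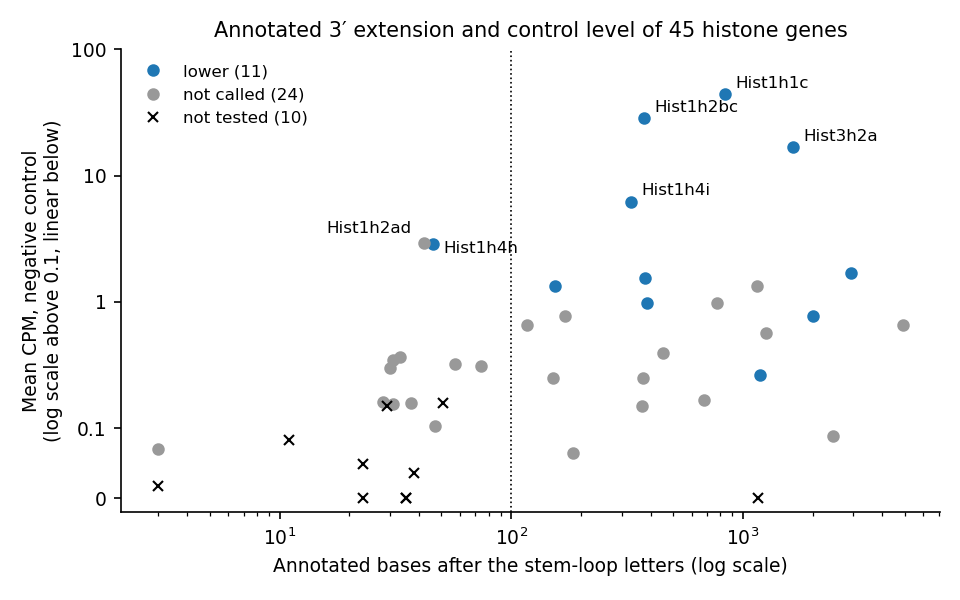
Mean CPM in the 2 negative controls (logarithmic above 0.1 CPM, linear below) against the number of annotated bases after the stem-loop letters (logarithmic axis) for the 45 histone genes that hold them, by call; the dotted line is at 100 bases. The 4 genes with the highest control levels lie to the right of the line, as do 10 of the 11 genes called lower.

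Sequence shared among copies limits what is counted for each gene. All 150-base windows of 15 members were found in no other GENCODE gene, most windows of 23 members were also found elsewhere, and 3 members had no window of their own. The sum of the 15 distinct genes was 21.3 ± 1.19 CPM (SD, n = 4) against 59.5 ± 2.46 CPM (SD, n = 2), and that of the 23 was 10.2 ± 1.11 against 24.8 ± 1.45 CPM. Both sums were lower in all GapmeR samples. Of the 12 distinct genes tested 2 were lower, Hist1h1c and Hist1h2al, 16.7% beside 20.0% of all genes, and of the 13 tested among the 23, 3 were lower, 23.1%. Hist1h1c and Hist1h2al carried most of the first sum, and the other 13 distinct genes summed to 5.54 ± 0.542 CPM (SD, n = 4) against 6.79 ± 0.151 CPM (SD, n = 2), a remainder set by taking out the genes called lower. How reads with several matching places were treated is not given in the sources used here, so single copies are uncertain beyond their counts. As annotated, 22 members overlapped no other annotated gene on GRCm39, and without a stated strand setting the reads of overlapping genes on opposite strands cannot be told apart. Hist1h1c was among those 22 and had no shared window.

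Other genes that give RNAs without a tail were looked at as a comparison. Of 13 found in the table, 7 were tested and 2 rose, Rmrp and Neat1, a share of 28.6% that is near the 25.4% of all genes. Neat1, the paraspeckle RNA, has a long form without a tail and a short polyadenylated form, which a count per gene does not separate, and it rose by 0.82 on the log2 scale (SE 0.10, adjusted p = 6.19e-06), to 361.6 ± 32.2 CPM (SD, n = 4) against 205.1 ± 27.9 CPM (SD, n = 2). Rmrp, the RNA of RNase MRP, had 57, 134, 47 and 54 counts against 30 and 35, and GapmeR sample 2 stood well above the rest (adjusted p = 0.0394). Without that sample Rmrp stood at 0.57 and was not called, and without control 1 or 2 it was not called at 0.95 or 0.96. Rn7sk, an abundant small nuclear RNA in most cells, had 6.96 ± 3.12 CPM (SD, n = 4) against 6.58 ± 0.269 CPM (SD, n = 2), and Terc, Rnu7 and Rnu11 were listed at 0 in every sample. Malat1 stood at -0.19 (SE 0.18) on the log2 scale, and it stood at -0.44 and was called lower without control 1 but at 0.16 without control 2. Rn7sk stood at -0.28 without GapmeR sample 2.

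The replacement and variant histones, which are made outside S phase as well and whose mRNAs are mostly polyadenylated, were far more abundant. Their 11 genes summed to 1944 ± 129.6 CPM (SD, n = 4) after GapmeR treatment and to 2213 ± 17.2 CPM (SD, n = 2) in the negative controls. Of the 11 tested, 2 rose and 4 fell, 18.2% and 36.4% beside 25.4% and 20.0% of all genes. Their median log2 fold change was -0.09, and without control 2, 1 rose and 2 fell. H3f3b, an H3.3 gene, fell from 762.6 ± 6.62 to 591.1 ± 18.3 CPM, with a log2 fold change of -0.37 (SE 0.07, adjusted p = 5.74e-04), while H3f3a, the other H3.3 gene, stood at -0.16 (adjusted p = 0.108). H2afj, an H2A variant, fell by 0.50 on the log2 scale (SE 0.09, adjusted p = 3.81e-04). The macroH2A genes H2afy and H2afy2 fell by 0.38 and 0.37 on the log2 scale (adjusted p = 0.00109 and 0.00341), and without control 2 they stood at -0.30 and -0.29 and were not called.

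Cenpa, the centromeric H3, rose by 0.77 on the log2 scale (SE 0.16, adjusted p = 0.00402), with 31.3 ± 5.01 CPM (SD, n = 4) against 18.5 ± 3.80 CPM (SD, n = 2). H2afv, a gene of H2A.Z, rose by 0.36 (SE 0.09, adjusted p = 0.00301), while H2afz, the other H2A.Z gene, and H2afx, the damage-responsive variant, stood at 0.22 and 0.19 and were not called (adjusted p = 0.0819 and 0.0524), though each was called higher without some single samples, H2afz at 0.27 without GapmeR sample 3 and H2afx at 0.29 without control 1. Without control 2 H2afv stood at 0.31 and was not called. The linker variants H1f0 and H1fx stood at -0.09 and 0.04 on the log2 scale and were not called.

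Of 26 genes that make and process histone mRNA, all tested, 3 rose and 3 fell, 11.5% of the list each way beside 25.4% and 20.0% of all genes, with a median log2 fold change of -0.05. Without GapmeR sample 2, 8 fell, and without control 1 or 2, 1 fell. Slbp, the stem-loop binding protein, had 49.3, 52.4, 45.6 and 51.8 CPM against 45.5 and 46.7 CPM, with overlapping groups and a log2 fold change of 0.11 (SE 0.08, adjusted p = 0.256). Npat, the S-phase activator of histone transcription, stood at -0.15 (SE 0.09, adjusted p = 0.185). Casp8ap2, its partner in histone locus bodies, stood at 0.18 (adjusted p = 0.112).

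Lsm10 and Lsm11, the U7-specific Sm-like proteins, stood at -0.08 and 0.03 on the log2 scale, and neither was called. Zfp473, a U7-associated zinc finger protein, had 14, 30, 17 and 8 counts against 8 and 5 and was not called (log2 fold change 1.17, SE 0.53, adjusted p = 0.0842). Hinfp, which binds H4 promoters, rose by 0.34 on the log2 scale (SE 0.11, adjusted p = 0.0185), though without control 1 it stood at 0.24 and was not called. Pou2f1, which binds the octamer of H2B promoters, stood at -0.26 (adjusted p = 0.101), and at -0.31 with a call without GapmeR sample 2. Srrt, the cap-binding complex partner ARS2, had the largest change among the genes called on the list, a rise of 0.84 (SE 0.08, adjusted p = 1.91e-07), and Ncbp1, a cap-binding subunit, rose by 0.22 (adjusted p = 0.0186).

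The 3 that fell were Zcchc11, Eri1 and Sympk. Zcchc11, a uridylyltransferase linked to histone mRNA decay, fell by 0.46 on the log2 scale (SE 0.08, adjusted p = 2.61e-04). Eri1, the exonuclease that trims the histone mRNA end, fell by 0.27 (SE 0.08, adjusted p = 0.0105), and Sympk, a scaffold of the cleavage complex, fell by 0.25 (adjusted p = 0.0291). Without control 1 or control 2 Eri1 stood at -0.28 or -0.22 and was not called. Mblac1, a nuclease known to cut histone pre-mRNA, stood at -0.43 (SE 0.19, adjusted p = 0.0853), and at -0.59 with a call without GapmeR sample 2.

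Genes of DNA replication and mitosis mostly rose, while none of the histone genes tested was called higher. The calls are not alike, since the median SE was 0.09 for the replication genes, 0.10 for the mitosis genes and 0.47 for the histone genes. A rise as small as the replication genes' median would seldom be called among the histone genes. Of 46 replication genes, 33 rose, 71.7% beside 25.4% of all genes, with a median log2 fold change of 0.37, and all 25 mitosis genes rose, with a median of 0.56. Mcm10, a replication initiation factor, had 31.4 ± 1.90 CPM (SD, n = 4) against 14.97 ± 1.54 CPM (SD, n = 2). It and Cdc6, which loads the replicative helicase, rose by 1.07 and 1.06 on the log2 scale (SE 0.10 each, adjusted p = 1.68e-07 and 3.79e-07). Ccnb2 and Nusap1, a mitotic cyclin and a spindle protein, rose by 0.91 each, and Anln and Cenpe had the smallest rises of the mitosis list, 0.30 and 0.37. Without control 2, 21 replication genes and 20 mitosis genes were called higher, and neither Anln nor Cenpe was, at 0.23 and 0.33.

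Of 21 histone chaperones 7 were higher and 4 lower, 33.3% and 19.0% of the list, near the 25.4% and 20.0% of all genes. Their median log2 fold change was 0.08, and without control 1 or 2 the lower calls were 2. Hjurp, the chaperone of CENP-A, rose by 0.75 on the log2 scale (SE 0.11, adjusted p = 3.06e-05) alongside Cenpa, and Chaf1b, a subunit of the assembly factor CAF-1, rose by 0.70 (adjusted p = 1.37e-06). Daxx, an H3.3 chaperone, fell by 0.78 (SE 0.08, adjusted p = 1.43e-06), and Asf1a, an H3-H4 chaperone, fell by 0.39 (adjusted p = 4.70e-04).

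**Figure D5:**
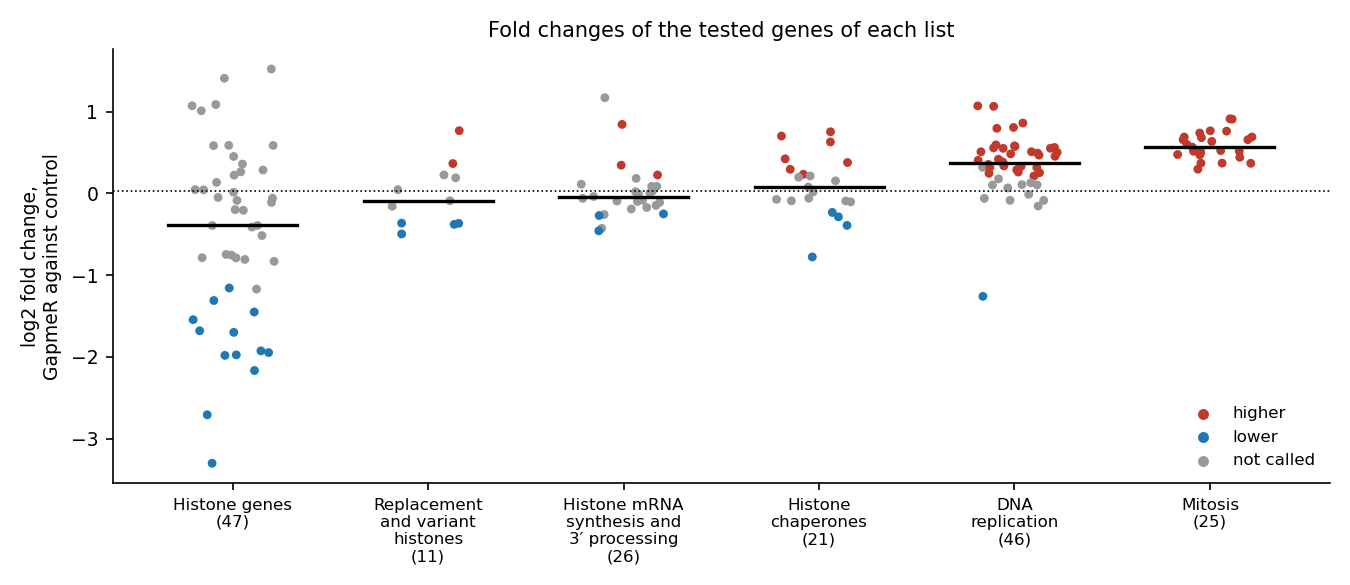
Log2 fold change of GapmeR against negative control samples for each tested gene (points, coloured by call) of 6 lists, with the number tested in brackets, the list's median as a bar and the median of all genes tested, 0.03, as a dotted line; sideways scatter has no meaning. The median of the histone genes is -0.39, and those of the replication and mitosis genes are 0.37 and 0.56.

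Markers of other cell types were set beside the histone result. The macrophage markers summed to 226.3, 206.6, 348.5 and 381.5 CPM against 176.2 and 172.06 CPM, with 3 of 12 called higher, 25.0% of them beside 25.4% of all genes, none at 0 in all samples, and Lyz2 the highest by mean CPM. The fibroblast and mural markers summed to 17.8, 16.7, 78.4 and 22.1 CPM against 16.03 and 17.1 CPM, GapmeR sample 3 being high through Col1a1, and none of the 10 was called by edgeR, with 1 lower at an unadjusted p under 0.05. The 8 male germ line markers summed to 0.679, 0.796, 0.935 and 0.712 CPM against 0 and 0.0940 CPM. Of these Prm1 and Prm2 were tested and both were called higher on at most 14 counts a sample, having reached the count minimum through the GapmeR samples alone, and Tnp1 was at 0 in all 6. GapmeR samples 1 and 2, with the lower macrophage sums, had histone sums of 45.3 and 49.3 CPM, and samples 3 and 4 had 42.7 and 42.1 CPM. The part of other cell types in the histone result was not tested. Mitochondrial transcripts took 0.313% to 0.428% of a GapmeR library and 0.379% and 0.348% of the control libraries.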

How the data were processed

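Per the labels, total RNA of bEND.3 cells was sequenced as paired reads. The authors trimmed the reads, aligned them with STAR on GRCm38 and deposited whole-number read counts per gene, not normalized or filtered. The submitters' processing notes name Trimmomatic 0.36, STAR 2.5.2b and Subread 1.5.2. The strand setting and the treatment of multiply mapped reads are not given in the sources used here. The series' text names 4 samples a group. The labels of the samples analysed here gave 4 GapmeR and 2 negative control samples, and 1 further column of per-sample counts was not used.

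Genes that reached 5 counts in 2 or more samples were fitted with edgeR 4.0.16 in R 4.3.3 (TMM, robust quasi-likelihood test, no covariates), with Benjamini-Hochberg adjustment over all 18234 genes and an adjusted p under 0.05. The fit was tested on simulated data. The study's DESeq2 Wald test (version 1.42.0 here) and limma-voom 3.58.1 were alternatives, with other scalings, filters and a replicate block. An exact permutation test of 4 against 2 samples could not go below p = 0.0667 and was not used. Replicates differed beyond sampling noise, with a chi-square of 5.41 to 25.2 per degree of freedom. Limits from counts of 0 use 3 counts and cover counting error only.

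The members and lists were chosen with earlier results of these data known. Named genes are, in each family, the 3 highest and 3 lowest log2 fold changes and the 2 highest mean CPM, set processing factors and variants, and the 2 highest and 2 lowest of other lists with a mean of at least 1 CPM. Other genes were named after their values were seen. One replication gene that the rule names is not reported here. Stem-loops and exon lengths are from GENCODE vM39 (GRCm39, all 68 genes matched by Ensembl identifier) and gene coordinates and promoters from RefSeq on GRCm38.p6 (67 of 68 matched by older symbol), read with Python 3.11.15 and pandas 2.3.3.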

Additional observations from a re-analysis of the deposited data

Results flagged for a closer look

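Of 76 sets of 4 GapmeR values checked, 5 had 1 sample whose gap to its nearest neighbour was past Dixon's critical share of the whole range for 4 samples, and chance gives about 1 such set in 20. GapmeR sample 2 was the highest in all 5, and it was also the sample with the most counts. The gap was 0.97 of the range for Hist1h1b, on at most 14 counts (0.0885 to 0.3596 CPM). It was 0.927 for Rn7sk (5.23 to 11.6 CPM) and 0.913 for Rmrp (1.52 to 3.44 CPM). For the replacement linker histone H1f0 it was 0.881 (297.9 to 402.5 CPM), and for H2afz it was 0.88 (290.2 to 375.3 CPM). None of the 13 histone genes called lower was among the 5.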

How the results depend on the processing

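Of the 13 histone genes called lower, 13 were also lower with edgeR under DESeq2 size factors, library size alone and limma-voom, 12 with DESeq2 and with no filter beyond 1 count in total, and 11 to 13 when each sample was left out in turn. In all, 11 to 14 members were then called lower, the 14 including Hist3h2ba at -0.89 without GapmeR sample 3 (adjusted p = 0.0442). With at least 10 counts in every sample 15 members were left and 8 were lower, since the other 5 were not tested. Of all 13353 genes tested under that filter, 2923 were lower. The single higher call that appeared under library size alone (log2 fold change 1.22) and without GapmeR sample 3 (0 to 1 on leaving out each sample) was Hist1h2ae. The log2 ratio of the summed CPM was -1.64 to -1.47 on leaving out each sample, -1.41 by library size alone, -1.72 over members with at least 10 counts in every sample and -0.91 without the 3 most abundant members, a choice made after seeing the data. The fold change of Gm39822 was -5.25 to -4.52 without each GapmeR sample, and it had no value without either control or with at least 10 counts in every sample, where it was not tested. Library size alone moved the median of all genes from 0.03 to 0.17 on the log2 scale and no filter moved it to 0.16, with 6106 genes higher and 2135 lower under library size against 4625 and 3643.

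At an added 1.5-fold limit 3238 of all 18234 genes were higher and 1390 lower. Under that limit the counts higher and lower were 1 and 0 of the variant histones, 1 and 0 of the synthesis and processing genes and 3 and 1 of the chaperones, with 6 of 46 replication and 12 of 25 mitosis genes higher. Under library size alone 4 variant histones, 6 synthesis and processing genes and 11 chaperones were higher, with 1 and 2 of the latter lists lower, and limma-voom called 1 of the other untailed RNAs higher. Leaving out each sample gave 1930 to 3949 lower genes in all, 1 to 3 variant histones higher and 2 to 6 lower, 1 to 8 synthesis and processing genes lower, 21 to 34 replication genes higher and 1 to 2 lower, 2 to 5 chaperones lower, and 1 to 2 other untailed RNAs higher and 0 to 1 lower.

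Signs that turned were all of fold changes with no call in the edgeR fit, and among the histone genes they turned under at least 1 setting in 17 of the 34 not called and in 0 of the 13 called lower. Over all settings Hist1h2ad ranged from -0.26 to 0.21, Hist2h2ac from -0.62 to 1.13 and Hist1h2bk from -1.40 to 0.06. By library size alone Hist1h1e stood at 0.039, Hist1h2bb at 0.086, Lsm10 at 0.065, Npat at 4e-04 and H1f0 at 0.059, and by limma-voom Hist1h1b stood at -0.11. On leaving out each sample Hist1h1b ranged from -0.16 to 0.34, Hist1h1e from -0.33 to 0.21, Hist1h2bb from -0.20 to 0.16, Hist1h3g from -0.13 to 1.04, Hist4h4 from -0.28 to 1.81, Hist1h4c from -0.077 to 0.77, Prim2 from -0.27 to 0.0014, Malat1 from -0.44 to 0.16, Rn7sk from -0.28 to 0.23, H1fx from -0.17 to 0.34 and Lsm11 from -0.019 to 0.11. The cause of these shifts was not tested.

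Samples of the 2 groups with the same replicate number shared only the number: their deviations from the group means correlated at -0.0428 and 0.101 over 12031 genes. With the replicate number as a block, on the 4 samples numbered 1 and 2, 12 histone genes were lower, 1 was higher (Hist1h2ae at 1.21) and 4 other untailed RNAs were higher. All genes tested with the block numbered 17524, of which 3295 were lower and 4517 higher. Under the block Hist1h1e stood at 0.24, Hist1h2bb at 0.11, Hist1h2bl at 0.037, H1fx at -0.14 and H1f0 at 0.014.

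Counts were few: 38 of the 47 tested histone genes had a mean under 1 CPM, and 7 of those 38 were lower, beside 20.0% of all genes tested. Of the 9 with a mean of at least 1 CPM, 6 were lower.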
